A study of Mus musculus with 20 samples.

Results

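Ubd, Upp1 and Ido1 are 3 genes of the mouse intestine out of 24791 genes measured here, and they were chosen by their measured RPKM, which was very low in both Apc Min groups against wild-type (WT) libraries. Ubd encodes FAT10, a small modifier of the ubiquitin family that is joined to other proteins and sends them to the proteasome. Upp1 encodes uridine phosphorylase, which splits uridine into uracil and ribose 1-phosphate. Ido1 encodes indoleamine 2,3-dioxygenase, which opens the ring of tryptophan in the step that commits it to the kynurenine pathway. All of them are known as genes that inflammatory cytokines switch on: interferon gamma, made mainly by activated T cells and natural killer cells, binds its receptor, acts through transcription factors such as IRF1, and raises Ido1, Upp1 and, together with tumor necrosis factor, Ubd. In the gut these cytokines come largely from lymphocytes in and below the epithelium.

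The data were 20 RNA sequencing libraries in 3 groups. The first held 6 libraries of Apc Min genotype treated with DM-aKG, the second 7 of Apc Min genotype with a control treatment, and the third 7 of WT genotype listed as having had no treatment. Apc Min mice carry a truncating mutation in one copy of Apc, which restrains beta-catenin and so Wnt signalling, and they form many small tumors of the gut. The agent DM-aKG, dimethyl alpha-ketoglutarate, is an ester form of that metabolite that enters cells. The title of the series asks about alpha-ketoglutarate, Wnt signalling and differentiation in colorectal cancer. Ages, doses and times are not given, the WT libraries are not vehicle-treated controls, and the control agent is not named. For all 20 libraries the growth label names organoid medium and the treatment label low glutamine medium, and the tissue label names intestinal organoids, while the titles name tissue. Transcripts of cells other than epithelium were present in every group. The summed level of 10 smooth muscle markers was 769 to 1395 RPKM (reads per kilobase of gene, scaled to the mapped reads of the library) in DM-aKG libraries, 353 to 1241 RPKM in control libraries and 897 to 1554 RPKM in WT libraries, and none of these markers was at 0. Of 8 epithelial markers the sum was 2835 to 3865 RPKM in DM-aKG libraries, 3744 to 5433 RPKM in control libraries and 4671 to 6360 RPKM in WT libraries. The labels do not say which libraries come from separate animals, so the p-values below measure the spread between these libraries, part of which may be technical.

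Depth, estimated from the smallest steps between values, was 26.4 to 27.45 M reads in DM-aKG libraries, 21.2 to 28.7 M in control libraries and 25.95 to 29.5 M in WT libraries. Libraries numbered 1 to 4 and those numbered 5 to 7 stood apart in the ribosomal transcript Rn45s, with 3836 to 6558 RPKM in the 12 libraries of the lower numbers and 1078 to 3621 RPKM in the 8 of the higher numbers, so results are also given within each of these sets. DM-aKG replicate 2 stood apart within its group: the summed level of 14 Wnt target genes was 179 RPKM there, the other DM-aKG libraries having 35.6 to 70.9 RPKM, against 267 to 550 RPKM in control libraries and 25.9 to 52.9 RPKM in WT libraries.

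Ubd lies on chromosome 17 from 37193892 to 37196095 on the plus strand, Upp1 on chromosome 11 from 9118103 to 9136170 on the plus strand, and Ido1 on chromosome 8 from 24584136 to 24597009 on the minus strand (mm10, GENCODE M21, each annotated as protein coding). RefSeq promoters, 250 bases before to 50 after an annotated start, were matched for 2 of the 3 genes, with 1 window for Ubd and 3 for Upp1. The windows at the start that GENCODE also gives are printed because both genes were low together, 5′ to 3′ on the plus strand, with the matches to the motifs searched in capitals. In the Ubd window (GRCm38.p6, chr17:37193642-37193941) the capitals mark the NF-kappa-B consensus, whose first base lies 15 bases before the start, and TATAA, whose first base is base 12 of the annotated transcript. In the Upp1 window (GRCm38.p6, chr11:9117853-9118152) they mark TGAGTCA, a match to the AP-1 motif, which begins 140 bases before the start.
Ubd promoter: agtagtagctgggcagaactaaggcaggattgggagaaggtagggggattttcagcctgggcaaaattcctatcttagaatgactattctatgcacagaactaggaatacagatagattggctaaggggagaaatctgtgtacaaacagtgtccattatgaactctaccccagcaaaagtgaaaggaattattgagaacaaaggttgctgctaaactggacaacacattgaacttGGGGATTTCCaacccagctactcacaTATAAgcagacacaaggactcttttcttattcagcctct
Upp1 promoter: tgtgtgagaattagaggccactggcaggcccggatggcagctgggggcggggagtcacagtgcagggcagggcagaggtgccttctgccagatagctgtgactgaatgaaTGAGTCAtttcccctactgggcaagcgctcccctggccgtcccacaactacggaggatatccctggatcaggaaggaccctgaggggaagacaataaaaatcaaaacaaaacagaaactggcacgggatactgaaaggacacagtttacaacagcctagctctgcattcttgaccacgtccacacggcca

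The motifs were searched on both strands and were chosen after the sequences had been seen. They were the ISRE core (the element that interferon regulatory factors bind), the NF-kappa-B consensus, the AP-1 motif TGANTCA and TATAA. Neither of the printed windows held the ISRE core. Of 32851 RefSeq promoters of the same length, 8.46% held the NF-kappa-B consensus, 7.81% TGANTCA, 24.9% TATAA and 3.44% the ISRE core. The matches describe these letters and were not related to any measured binding.

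Ubd was at 0.872, 0.482, 1.78, 1.28, 0.708 and 1.47 RPKM in the 6 DM-aKG libraries, at 3.10, 2.45, 0.334, 0.877, 0.0391, 1.74 and 0.344 RPKM in the 7 control libraries, and at 161.9, 32.9, 117.8, 5.51, 73.2, 62.1 and 16.9 RPKM in the 7 WT libraries. Every Apc Min library lay below every WT library, and the DM-aKG values lay inside the range of the control values. The means were 1.10 ± 0.495 RPKM with DM-aKG (SD, n = 6), 1.27 ± 1.18 RPKM in controls (SD, n = 7) and 67.2 ± 56.4 RPKM in WT (SD, n = 7). The DM-aKG mean was 1.64% and the control mean 1.89% of the WT mean. At the estimated depth these values correspond to about 12 to 45 reads in DM-aKG libraries, 1 to 61 reads in control libraries and 135 to 4146 reads in WT libraries, so counting error weighs most on the lowest control libraries.

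Upp1 was at 9.48, 9.29, 13.1, 10.02, 4.21 and 16.8 RPKM in DM-aKG libraries, at 19.3, 9.73, 4.86, 17.3, 3.35, 25.6 and 6.82 RPKM in control libraries, and at 225.8, 283.3, 197.9, 117.8, 161.6, 160.4 and 92.7 RPKM in WT libraries. It kept the highest level of the 3 genes in every library, and its groups of Apc Min genotype again overlapped each other and stayed below WT. The means were 10.5 ± 4.22 RPKM with DM-aKG (SD, n = 6), 12.4 ± 8.39 RPKM in controls (SD, n = 7) and 177 ± 64.8 RPKM in WT (SD, n = 7), so that the DM-aKG mean was 5.92% and the control mean 7.02% of the WT mean.

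Ido1 was at 3.06, 1.06, 2.998, 4.94, 0.749 and 4.10 RPKM in DM-aKG libraries, at 4.08, 2.995, 0.196, 3.21, 0.580, 7.02 and 1.17 RPKM in control libraries, and at 67.2, 45.6, 55.3, 16.6, 45.2, 44.1 and 28.2 RPKM in WT libraries. Here too no Apc Min library reached the lowest WT library. The means were 2.82 ± 1.65 RPKM with DM-aKG (SD, n = 6), 2.75 ± 2.38 RPKM in controls (SD, n = 7) and 43.2 ± 16.7 RPKM in WT (SD, n = 7), the DM-aKG mean being 6.52% and the control mean 6.37% of the WT mean. In bulk RNA, fewer cells that express a gene and less of its RNA per cell cannot be told apart.

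**Figure D1:**
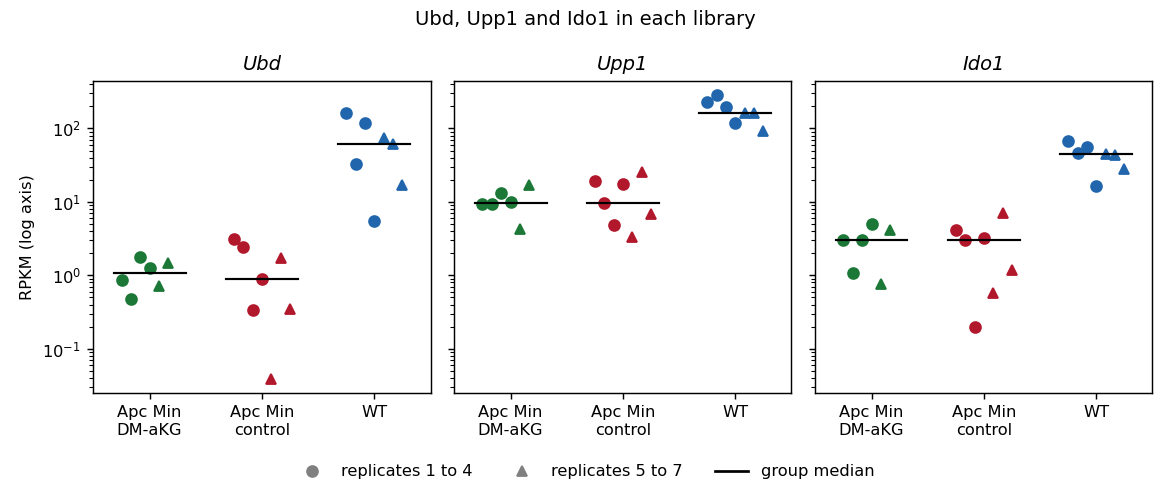
RPKM on a log axis for Ubd, Upp1 and Ido1 in each library of the 3 groups; circles are replicates 1 to 4, triangles replicates 5 to 7, and bars group medians. The DM-aKG and control libraries overlap for each gene, and all lie below the lowest WT library, which is at 5.51 RPKM for Ubd, 92.7 RPKM for Upp1 and 16.6 RPKM for Ido1.

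The order of the mean levels was DM-aKG, control, WT for Ubd and Upp1 and control, DM-aKG, WT for Ido1, and in each case the lower neighbours in that order did not differ beyond their spread. The distance to WT was widest for Ubd by means and widest for Upp1 by the nearest libraries. For Ubd the WT mean was 61.1 times the DM-aKG mean and 52.9 times the control mean, and the lowest WT library was 3.09 times the highest DM-aKG library and 1.78 times the highest control library. For Upp1 the ratios of means were 16.9 with DM-aKG and 14.3 in controls, and those of the nearest libraries 5.51 with DM-aKG and 3.62 in controls. For Ido1 the ratios of means were 15.3 with DM-aKG and 15.7 in controls, and those of the nearest libraries 3.37 with DM-aKG and 2.37 in controls.

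The differences from WT chose these genes and are therefore given as a description, without a test. Of all genes tested, limma called 39.2% between DM-aKG Apc Min and WT libraries and 58.9% between control Apc Min and WT libraries (Benjamini-Hochberg adjusted p under 0.05), and nothing is read from the place of the 3 genes among them. On the log2(RPKM + 1) scale the fitted change between DM-aKG Apc Min and WT libraries was -4.45 for Ubd, -3.96 for Upp1 and -3.56 for Ido1, which were the 1st, 2nd and 5th lowest among 12431 genes that reached 1 RPKM in at least 6 libraries. The change between control Apc Min and WT libraries was -4.47 for Ubd, -3.91 for Upp1 and -3.72 for Ido1, the 1st, 8th and 10th lowest. Both comparisons share the WT libraries. The pseudocount of 1 RPKM holds back the change of Ubd, whose level in Apc Min libraries was near it. Over all genes, 7.79% had every DM-aKG library below every WT library, 5.73% had every control library below every WT library, and 3.37% had both, as the 3 genes did. All 3 passed the filter on low values, Ubd through 3 of 6 DM-aKG, 3 of 7 control and 7 of 7 WT libraries at or above 1 RPKM, Ido1 through 5 of 6 DM-aKG, 5 of 7 control and 7 of 7 WT libraries, and Upp1 through all 20 libraries.

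Within the sets of replicates the differences from WT were of like size. In replicates 1 to 4 the change between DM-aKG and WT libraries was -4.47 for Ubd, -4.12 for Upp1 and -3.49 for Ido1, and in replicates 5 to 7 it was -4.41 for Ubd, -3.81 for Upp1 and -3.72 for Ido1. Between control and WT libraries it was -4.22 for Ubd, -3.998 for Upp1 and -3.73 for Ido1 in replicates 1 to 4, and -4.81 for Ubd, -3.80 for Upp1 and -3.70 for Ido1 in replicates 5 to 7.

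Among the 12431 genes kept, the rank of each gene shifted with genotype. In WT libraries Ubd stood above 93.5%, Upp1 above 97.6% and Ido1 above 89.7% of genes by mean RPKM. In DM-aKG libraries Ubd stood above 7.21%, Upp1 above 63.6% and Ido1 above 26.9% of genes, and in control libraries Ubd stood above 6.33%, Upp1 above 64.8% and Ido1 above 21.9%. Upp1 was thus a gene of middle rank in Apc Min libraries, and Ubd was close to the bottom of the genes kept.

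The difference between the DM-aKG and control libraries was fitted and tested, but it is not independent of the choice of genes. Picking genes that were low in both Apc Min groups favours a small difference between them. The absence of a call is therefore not evidence on the treatment. None of the 3 genes was called, nor had an unadjusted p under 0.05, against a background of 33.5% of 12431 genes called in either direction by limma with Benjamini-Hochberg adjusted p under 0.05. For Ubd the change of DM-aKG over control was 0.023 on the log2(RPKM + 1) scale (SE 0.562, 95% interval -1.149 to 1.196, limma adjusted p = 0.979). For Upp1 it was -0.048 (SE 0.380, 95% interval -0.84 to 0.74, limma adjusted p = 0.935), and for Ido1 it was 0.162 (SE 0.411, 95% interval -0.70 to 1.02, limma adjusted p = 0.790). The intervals leave room for a change of more than 1 log2 unit in Ubd and Ido1 and of more than 0.7 in Upp1, so these values do not show that the groups are alike. Within replicates 1 to 4 the changes were -0.253 for Ubd, -0.121 for Upp1 and 0.241 for Ido1 (limma adjusted p = 0.870, 0.860 and 0.796), and within replicates 5 to 7 they were 0.393 for Ubd, -0.004 for Upp1 and -0.016 for Ido1 (limma adjusted p = 0.682, 0.998 and 0.989). Over 32 alternatives the limma adjusted p ran from 0.682 to 0.9999 for Ubd, from 0.590 to 0.998 for Upp1 and from 0.472 to 0.999 for Ido1.

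The control libraries of Apc Min genotype varied more among themselves than the treated ones. The highest control library was 79.3 times the lowest for Ubd, 7.64 times for Upp1 and 35.8 times for Ido1, while among DM-aKG libraries these ratios were 3.70 for Ubd, 3.999 for Upp1 and 6.59 for Ido1. The difference in spread was not tested, and the lowest Ubd value rests on about 1 read. Control replicates 3, 5 and 7 had low values of each gene, and control replicate 5 had the lowest Ubd and Upp1 values of all 20 libraries. In WT the highest library was 29.4 times the lowest for Ubd, 3.06 times for Upp1 and 4.04 times for Ido1, and WT replicate 4 had the lowest Ubd and Ido1 values.

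The choice of genes used differences between groups and not the variation inside a group, where levels of the 3 genes mostly ran in parallel. Among the 7 WT libraries, which share the genotype but fall into both sets of replicates, Pearson's r of log2(RPKM + 1) was 0.968 between Ubd and Ido1 (Spearman's rho 0.893), 0.737 between Upp1 and Ido1 (rho 0.857) and 0.617 between Ubd and Upp1 (rho 0.607). Without the 2 libraries farthest from the median of the first gene named, r was 0.840 for Ubd and Ido1, 0.956 for Upp1 and Ido1 and -0.256 for Ubd and Upp1, so that the last relation rested on WT replicates 4 and 7. Among the 7 control libraries r was 0.807 between Ubd and Ido1 (rho 0.786), 0.945 between Upp1 and Ido1 (rho 0.964) and 0.774 between Ubd and Upp1 (rho 0.821), and without the farthest 2 it was 0.927, 0.924 and 0.972. Among the 6 DM-aKG libraries r was 0.763 between Ubd and Ido1 (rho 0.543), 0.744 between Upp1 and Ido1 (rho 0.714) and 0.663 between Ubd and Upp1 (rho 0.886), and without the farthest 2 it was 0.849, 0.277 and 0.897. These are descriptions of 9 relations over 6 or 7 libraries each.

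**Figure D2:**
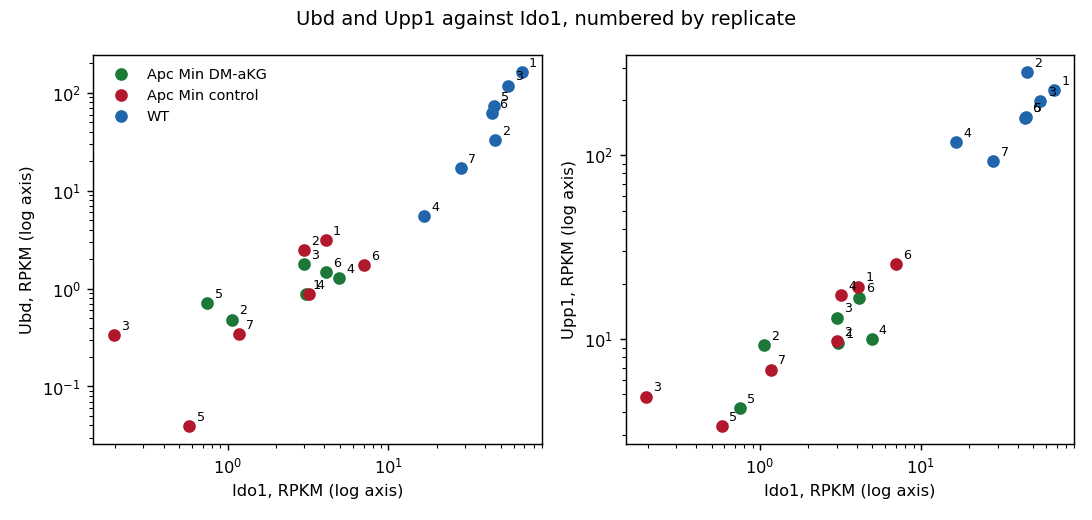
Ubd (left) and Upp1 (right) against Ido1 in RPKM on log axes, 1 point per library, colored by group and numbered by replicate. The WT libraries lie apart at the upper right, and within them Ubd follows Ido1 (r = 0.968 on the log2(RPKM + 1) scale).

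By the rule of highest mean correlation with the 3 genes over all 20 libraries, the genes of the most similar pattern were Psmb9 (mean r 0.970), Gzmb (0.968), Oasl2 (0.968), Psmb8 (0.967), Oas3 (0.967) and H2-DMb1 (0.964). This measure mostly follows the step between WT and Apc Min libraries, which chose the genes. Psmb8 and Psmb9 encode subunits of the immunoproteasome, Oasl2 and Oas3 belong to the oligoadenylate synthetase family that interferons induce, H2-DMb1 loads peptides on class II molecules, and Gzmb is a granule protease of cytotoxic lymphocytes. Within the 7 WT libraries alone the most similar were Ifit1 (mean r 0.908), Il13ra1 (0.906), Psmb8 (0.905), Tap1 (0.902), Ifrd1 (0.900) and Igtp (0.900). Of these Ifit1, Psmb8, Tap1 and Igtp are known interferon-induced genes, Il13ra1 is a receptor chain for interleukin 13, and Psmb8 was the only gene in both lists of 6. Ifrd1 did not share the step between groups, with means of 41.4 RPKM with DM-aKG, 44.3 RPKM in controls and 36.5 RPKM in WT. Among so many genes, high values of r over 7 libraries are easily reached, and none was tested.

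The neighbours of the 3 genes on their chromosomes were mostly silent. Olfr92, Olfr93, Olfr94 and Olfr95, olfactory receptor genes around Ubd, were listed at 0 in every library. Around Upp1, Sun3, Gm11992, Abca13 and Vwc2 reached at most 0.631, 0.671, 0.139 and 0.166 RPKM. Next to Ido1, its paralog Ido2 reached at most 0.0875 RPKM, Adam18 at most 0.0158 RPKM and Adam3 at most 0.0938 RPKM. Tcim, the second neighbour of Ido1 on the other side of Ido2, averaged 52.6 RPKM in DM-aKG, 40.6 RPKM in control and 51.9 RPKM in WT libraries.

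Upstream of the 3 genes, Irf1, a transcription factor of interferon gamma signalling, was lower in Apc Min than in WT libraries, and the receptor chain Ifngr1 was higher. Ifng itself was at 0 to 0.0933 RPKM in DM-aKG, 0 to 0.0775 RPKM in control and 0.0289 to 0.741 RPKM in WT libraries. The ranges overlapped, and the gene was too low to pass the filter and be tested. Ifngr1, the ligand-binding receptor chain, averaged 100 ± 17.1 RPKM with DM-aKG (SD, n = 6) and 95.3 ± 17.2 RPKM in controls (SD, n = 7), against 57.9 ± 17.2 RPKM in WT (SD, n = 7). It rose against WT in both Apc Min groups (limma adjusted p = 0.00118 with DM-aKG and 0.000718 in controls). Within replicates 5 to 7 Ifngr1 was not called between DM-aKG and WT libraries. Irf1 averaged 17.6 ± 7.34 RPKM with DM-aKG and 20.3 ± 6.08 RPKM in controls, against 55.8 ± 8.54 RPKM in WT (SD, n = 6, 7 and 7). Its change was -1.69 with DM-aKG and -1.45 in controls (limma adjusted p = 1.29e-05 and 7.96e-06). Within replicates 5 to 7 the change of Irf1 with DM-aKG was -1.59 and missed the threshold. That set holds only replicates 5 and 6 of the DM-aKG group. Of all genes, only 198 were called higher and 350 lower there between DM-aKG Apc Min and WT libraries.

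Of the 12 measured genes of the interferon gamma receptor pathway, 1 rose and 5 fell between DM-aKG Apc Min and WT libraries, against a background of 21.9% of all genes higher and 17.3% lower. Between control Apc Min and WT libraries 1 rose and 6 fell, against 43.2% higher and 15.7% lower. Within replicates 5 to 7, 3 fell with DM-aKG against WT, where 350 of all 12431 genes were called lower. The falls over all libraries included those of Irf1, Irf8, Irf9 and Socs1 in both comparisons and that of Jak2 in the controls. Socs1 reached at most 0.777 RPKM with DM-aKG and averaged 1.02 RPKM in controls. It met the filter through WT libraries, at 1.67 RPKM or more, which largely fixed its fall with DM-aKG. It is in the counts above. The median change of the 12 was -0.638 with DM-aKG and -0.209 in controls, and that of all genes 0.053 with DM-aKG and 0.199 in controls.

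Genes that interferon gamma is known to induce, other than the 3 members, followed the same direction. Of 29 measured, 25 fell and 0 rose between DM-aKG Apc Min and WT libraries, and 24 fell and 2 rose between control Apc Min and WT libraries, where the background lower shares were 17.3% and 15.7%. The medians were -1.52 with DM-aKG and -1.56 in controls. Of DM-aKG over control, 0 of the 29 rose and 1 fell, against a background of 5.91% higher and 27.6% lower, with a median of 0.005 and a median of all genes of -0.142. Ciita, the master regulator of class II genes, averaged 0.462 ± 0.272 RPKM with DM-aKG and 0.421 ± 0.485 RPKM in controls, against 6.29 ± 1.07 RPKM in WT (SD, n = 6, 7 and 7). Its change was -2.33 with DM-aKG and -2.40 in controls. Ciita reached at most 0.889 RPKM with DM-aKG, and in controls only replicate 2 passed 1 RPKM (1.48 RPKM, the next 0.452 RPKM). It met the filter through WT libraries, which largely fixed its fall, so no p-value is given for it. Nlrc5, at most 0.607 RPKM with DM-aKG and 0.682 RPKM in controls, met the filter in the same way. Both are in the counts above. Psmb9 averaged 5.75 ± 2.19 RPKM with DM-aKG and 4.93 ± 3.55 RPKM in controls, against 50.5 ± 17.6 RPKM in WT (change -2.93 with DM-aKG, limma adjusted p = 6.87e-06, and -3.28 in controls, limma adjusted p = 1.36e-07). Zbp1, a sensor of Z-form nucleic acid, averaged 1.26 ± 0.689 RPKM with DM-aKG and 2.76 ± 1.68 RPKM in controls, against 22.2 ± 11.6 RPKM in WT. It fell in both (limma adjusted p = 2.34e-06 with DM-aKG and 3.36e-06 in controls). Icam1, an adhesion molecule, went the other way: it averaged 3.17 ± 0.656 RPKM with DM-aKG and 4.63 ± 0.857 RPKM in controls, against 2.44 ± 0.536 RPKM in WT. Icam1 rose between control and WT libraries by 0.713 (limma adjusted p = 3.61e-05) and was the gene that fell with DM-aKG against control (change -0.43, limma adjusted p = 0.00969). That fall was not called under quantile or median-of-ratios scaling or within replicates 1 to 4. Serping1 also rose in controls against WT.

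The summed level of the 30 genes on this list was 122 to 204 RPKM in DM-aKG libraries, 115 to 308 RPKM in control libraries and 386 to 686 RPKM in WT libraries. The lowest WT sum, 386 RPKM, was that of WT replicate 4, the WT library with the lowest Ubd and Ido1. Control replicates 1 and 6, at 308 and 276 RPKM, had the highest sums of the control libraries and also their 2 highest Upp1 and Ido1 values.

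Markers of T cells and intraepithelial lymphocytes, which are among the cells that make interferon gamma, fell against WT as these genes did. Of 12 tested markers, 11 fell and 0 rose between DM-aKG Apc Min and WT libraries (all genes: 17.3% lower), 12 fell and 0 rose between control Apc Min and WT libraries (15.7% lower), and 0 were called by limma with DM-aKG against control (0 at an unadjusted p under 0.05). The medians were -1.92, -2.04 and 0.088 in the same order. The summed level of the 15 markers in the table was 10.3 to 33.6 RPKM in DM-aKG libraries, 4.17 to 50.1 RPKM in control libraries and 89.9 to 237 RPKM in WT libraries. With Apc Min sums so low, some of these markers may have met the filter mainly through WT libraries. The fall of such markers is largely fixed, so the counts are not to be read against the shares of all genes alone. No marker was at 0 in every library of a group, while Cd8b1, Prf1 and Xcl1 were at 0 in at least 1 control library. Cd3e, a chain of the T cell receptor complex, averaged 1.27 ± 0.577 RPKM with DM-aKG and 1.03 ± 0.577 RPKM in controls, against 7.72 ± 2.05 RPKM in WT (SD, n = 6, 7 and 7; limma adjusted p = 1.94e-06 with DM-aKG and 4.38e-08 in controls). Gzma, a granule protease, averaged 6.28 ± 3.16 RPKM with DM-aKG and 7.18 ± 7.83 RPKM in controls, against 73.7 ± 26.5 RPKM in WT (limma adjusted p = 9.94e-05 with DM-aKG and 5.65e-06 in controls). Control replicates 3 and 5, with sums of 5.01 and 4.17 RPKM, also had the lowest Ido1 of the controls, and WT replicate 4, with 89.9 RPKM, had the lowest Ido1 of WT. Not all libraries ran so. Control replicate 6, with the highest Ido1 of the controls (7.02 RPKM), had a sum of 17.0 RPKM, the control median. In the DM-aKG group the lowest sum was that of replicate 2 (10.3 RPKM) and the lowest Ido1 that of replicate 5 (0.749 RPKM). The part that these cells have in the levels of Ubd, Upp1 and Ido1 was not tested. Of the B and plasma cell markers, 5 of 6 tested fell between DM-aKG Apc Min and WT libraries (all genes: 17.3% lower) and 5 of 6 between control Apc Min and WT libraries (15.7% lower). Markers of some other cell types fell against WT too, beside the same shares of all genes (17.3% and 15.7% lower). Of 7 goblet cell markers 5 fell in each comparison. Of 8 epithelial markers 4 fell with DM-aKG and 3 in controls, where 1 rose. Of 10 macrophage markers 2 fell with DM-aKG, near the share of all genes, and 5 in controls, and 2 rose in each. Of 16 enterocyte markers 3 fell and 4 rose with DM-aKG, and 7 fell and 1 rose in controls. All 8 Paneth cell and all 10 smooth muscle markers fell in controls and 0 were called with DM-aKG.

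**Figure D3:**
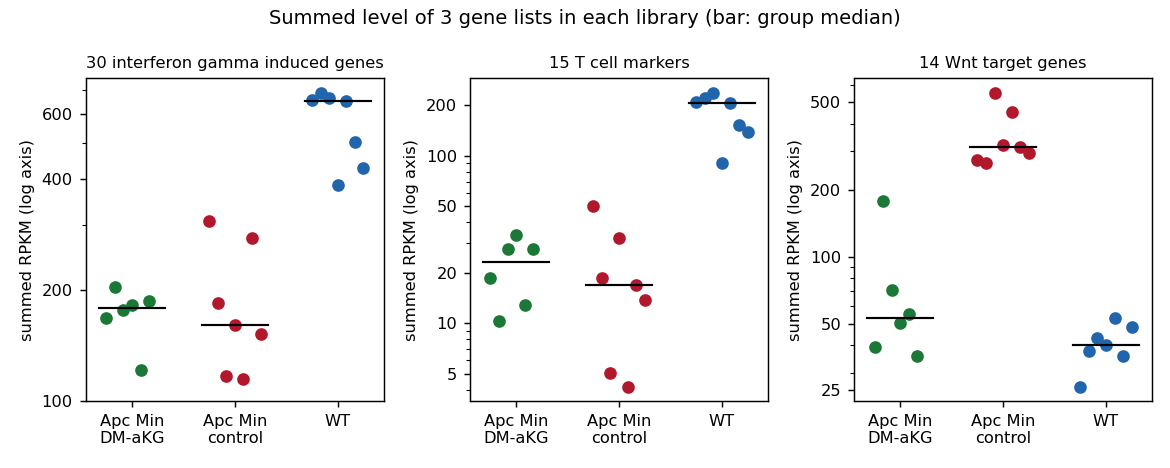
Summed RPKM on log axes of 30 interferon gamma induced genes, 15 T cell markers and 14 Wnt target genes in each library, with bars at group medians. The interferon and T cell sums are low in both Apc Min groups (at most 308 and 50.1 RPKM) and high in WT (at least 386 and 89.9 RPKM). The Wnt sums are highest in controls (at least 267 RPKM) and at most 52.9 RPKM in WT. With DM-aKG they are at most 70.9 RPKM, apart from replicate 2 at 179 RPKM.

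Genes of tumor necrosis factor and NF-kappa-B signalling, the other known inducer of Ubd, were called in shares near or below those of all genes. Of 17 measured, 2 rose and 0 fell between DM-aKG Apc Min and WT libraries, against 21.9% of all genes higher and 17.3% lower, and 6 rose and 1 fell between control Apc Min and WT libraries, against 43.2% higher and 15.7% lower. With DM-aKG against control, 1 rose and 5 fell, against 5.91% higher and 27.6% lower. Markers of other cell types moved beside them: of 4 tested neutrophil markers, 3 rose between DM-aKG Apc Min and WT libraries and 4 between control Apc Min and WT libraries. The summed level of 7 such markers was 1.60 to 41.7 RPKM in DM-aKG libraries, 6.84 to 58.0 RPKM in control libraries and 0.196 to 1.10 RPKM in WT libraries. The tested neutrophil markers thus met the filter through Apc Min libraries, which largely fixed their rise against WT. In WT, S100a8, S100a9, Cxcr2, Ly6g, Retnlg and Mmp8 were each at 0 in at least 1 library. Of 8 fibroblast markers 3 rose with DM-aKG and 7 in controls against WT, and of 8 endothelial markers 8 rose with DM-aKG and 5 in controls against WT. The part of these cells in the levels of this list was not tested. Cxcl2, a chemokine that attracts neutrophils, averaged 0.958 ± 1.81 RPKM with DM-aKG and 2.66 ± 1.16 RPKM in controls, against 0.0240 ± 0.0366 RPKM in WT. It rose between control and WT libraries by 1.78 and fell with DM-aKG against control by 1.17. Cxcl2 met the filter through control libraries, at 1.52 to 4.77 RPKM, while WT reached at most 0.0982 RPKM. That largely fixed both directions, so no p-value is given for it, and it is in the counts above. DM-aKG replicate 2, at 4.62 RPKM, stood far above the other DM-aKG libraries. Within replicates 1 to 4, which hold that library, the fall was 0.744 and was not called. Il1r1, the interleukin 1 receptor, averaged 3.40 ± 0.965 RPKM with DM-aKG and 5.23 ± 1.39 RPKM in controls, against 1.93 ± 0.613 RPKM in WT. Il1r1 rose between control and WT libraries by 1.08 (limma adjusted p = 1.09e-05).

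The machinery that uses FAT10 was measured in every group. Uba6, the enzyme that activates FAT10, averaged 2.01 RPKM with DM-aKG, 2.74 RPKM in controls and 2.88 RPKM in WT, and Nub1, which binds FAT10 and speeds its degradation, averaged 18.1, 17.1 and 18.7 RPKM in that order. Neither was called in any of the 3 comparisons (lowest limma adjusted p = 0.144 for Uba6 and 0.135 for Nub1). Of 13 measured genes of FAT10 conjugation and its partners, 1 rose and 4 fell between DM-aKG Apc Min and WT libraries (all genes: 21.9% higher, 17.3% lower), 8 rose and 0 fell between control Apc Min and WT libraries (43.2% higher, 15.7% lower), and 0 rose and 9 fell with DM-aKG against control (5.91% higher, 27.6% lower). These counts moved with scaling: under quantile and under median-of-ratios scaling 5 fell with DM-aKG, and under median-of-ratios scaling 2 rose in controls against WT. Hdac6, a deacetylase that binds FAT10, averaged 1.63 ± 0.365 RPKM with DM-aKG and 2.98 ± 0.526 RPKM in controls, against 1.42 ± 0.28 RPKM in WT (fell by 0.599 with DM-aKG, limma adjusted p = 0.000263; rose by 0.713 between control and WT, limma adjusted p = 9.11e-06). Ube2z, the conjugating enzyme for FAT10, averaged 20.9 ± 2.79 RPKM with DM-aKG and 29.4 ± 3.46 RPKM in controls, against 22.3 ± 3.15 RPKM in WT. Ube2z fell with DM-aKG by 0.478 (limma adjusted p = 0.00135). Its rise of 0.385 between control and WT (limma adjusted p = 0.00248) was 0.148 under median-of-ratios scaling and not called there. Psmd14 and Vcp, a proteasome lid subunit and an unfoldase that delivers proteins to the proteasome, fell with DM-aKG (changes -0.62 and -0.54, limma adjusted p = 0.000150 and 0.000135). Of 14 ubiquitin-like and ubiquitin genes, 0 rose and 4 fell with DM-aKG against control, near the 27.6% of all genes that were lower. Isg15, a further interferon-induced modifier, averaged 1.13 ± 0.741 RPKM with DM-aKG and 1.797 ± 1.27 RPKM in controls, against 12.2 ± 6.58 RPKM in WT. It fell against WT in both Apc Min groups (limma adjusted p = 2.40e-05 with DM-aKG and 1.21e-05 in controls).

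Among the enzymes around Upp1, no second uridine phosphorylase was measured at a level near it. Upp2, its paralog, reached 0.0713 RPKM in DM-aKG, 0.0514 RPKM in control and 0.144 RPKM in WT libraries. Of 30 measured genes of uridine and pyrimidine nucleoside metabolism, 5 rose and 5 fell between DM-aKG Apc Min and WT libraries (all genes: 21.9% higher, 17.3% lower), 12 rose and 6 fell between control Apc Min and WT libraries (43.2% higher, 15.7% lower), and 4 rose and 8 fell with DM-aKG against control (5.91% higher, 27.6% lower). Most of these shares are near those of all genes and say nothing particular about the list. The 8 falls were 1 under quantile and under median-of-ratios scaling, 4 within either set of replicates, and 5 without DM-aKG replicate 3, 5 or 6 or without control replicate 2 or 7. Uck2, a kinase that salvages uridine, averaged 11.9 ± 5.23 RPKM with DM-aKG and 20.5 ± 6.53 RPKM in controls, against 10.2 ± 2.74 RPKM in WT. It rose between control and WT by 0.895 (limma adjusted p = 0.00256) and fell with DM-aKG (change -0.74, limma adjusted p = 0.0231), a call lost under both scalings, within replicates 1 to 4 and without DM-aKG replicate 6. Dpyd, which starts the breakdown of uracil, averaged 54.8 ± 9.38 RPKM with DM-aKG and 30.9 ± 6.29 RPKM in controls (rose by 0.813, limma adjusted p = 7.52e-05). Tymp, which splits thymidine, averaged 4.43 ± 1.63 RPKM with DM-aKG and 1.84 ± 1.01 RPKM in controls, against 3.97 ± 1.495 RPKM in WT. It rose with DM-aKG by 0.942 (limma adjusted p = 0.00655) and fell between control and WT by 0.819 (limma adjusted p = 0.00637), and neither was called within replicates 1 to 4. Pgm2, which acts on ribose 1-phosphate, rose between control and WT by 1.08 (limma adjusted p = 4.10e-07), and Entpd5, a nucleoside diphosphatase, fell by 1.14 (limma adjusted p = 2.81e-05).

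Around Ido1, the other enzymes that open the tryptophan ring were near 0: Ido2 averaged 0.0122 RPKM with DM-aKG, 0.0195 RPKM in controls and 0.0435 RPKM in WT, and Tdo2 0.0378, 0.107 and 0.0438 RPKM in the same order. The next enzymes of the kynurenine branch were low too, with Kmo at 0.276 RPKM with DM-aKG, 0.341 RPKM in controls and 0.868 RPKM in WT, and Kynu at 0.0783, 0.107 and 0.352 RPKM. None of these 4 passed the filter. Of 13 measured genes of tryptophan and kynurenine metabolism, out of 25 in the table, 3 rose and 3 fell between DM-aKG Apc Min and WT libraries (all genes: 21.9% higher, 17.3% lower), 1 rose and 7 fell between control Apc Min and WT libraries (43.2% higher, 15.7% lower), and 5 rose and 1 fell with DM-aKG against control (5.91% higher, 27.6% lower). Enterocyte markers moved the same way: of 16 tested, 7 rose and 0 fell with DM-aKG against control (median 0.577, the tryptophan list 0.579), and 1 rose and 7 fell between control Apc Min and WT libraries (median -0.812, the tryptophan list -0.737). The summed level of the 16 markers was 15621 to 26112 RPKM in DM-aKG libraries, 8016 to 22782 RPKM in control libraries and 11935 to 31941 RPKM in WT libraries, and none was at 0 in any library. The part of enterocytes in the tryptophan list was not tested. The 5 rises were 9 under quantile scaling, 1 within replicates 1 to 4, 9 without DM-aKG replicate 2, 8 without control replicate 2, and 3 without DM-aKG replicate 5 or without control replicate 5 or 6. The 7 falls were 3 within replicates 1 to 4.

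The transporters of tryptophan moved in opposite directions. Slc6a19, the neutral amino acid carrier of the brush border, averaged 330 ± 48.9 RPKM with DM-aKG and 213 ± 64.1 RPKM in controls (rose by 0.672, limma adjusted p = 0.00674). Slc7a5, a carrier of large neutral amino acids, averaged 3.48 ± 1.87 RPKM with DM-aKG and 7.46 ± 1.997 RPKM in controls, against 2.23 ± 0.661 RPKM in WT. Slc7a5 fell with DM-aKG by 0.963 (limma adjusted p = 0.00169) and rose between control and WT by 1.37 (limma adjusted p = 1.22e-05). Neither change with DM-aKG was called within replicates 1 to 4. Kyat3, an aminotransferase that makes kynurenic acid, averaged 2.44 ± 0.582 RPKM with DM-aKG and 1.29 ± 0.236 RPKM in controls and rose by 0.579 (limma adjusted p = 0.000252), a rise that within replicates 5 to 7 was not called. Maoa, which degrades serotonin and tryptamine, fell between control and WT by 1.66 (limma adjusted p = 0.000100). Kynurenine is known to activate the aryl hydrocarbon receptor. Of 6 measured genes of that receptor and its targets, 0 were called between DM-aKG Apc Min and WT libraries by limma (1 at an unadjusted p under 0.05), 2 rose and 1 fell between control Apc Min and WT libraries (all genes: 43.2% higher, 15.7% lower), and 2 fell with DM-aKG against control (27.6% lower); with 6 genes these shares are near those of all genes. The receptor gene Ahr averaged 2.90 ± 0.471 RPKM with DM-aKG and 4.82 ± 1.16 RPKM in controls, against 2.26 ± 0.666 RPKM in WT (fell by 0.562 with DM-aKG, limma adjusted p = 0.00522; rose by 0.836 between control and WT, limma adjusted p = 4.04e-05). Its target Cyp1b1 averaged 2.97 ± 0.859 RPKM with DM-aKG and 8.85 ± 3.68 RPKM in controls, against 1.88 ± 0.282 RPKM in WT (fell by 1.25 with DM-aKG, limma adjusted p = 5.85e-05; rose by 1.70 between control and WT, limma adjusted p = 2.92e-07). The list as a whole did not move so. The median change of the 6 genes was -0.015 with DM-aKG against control and -0.104 between control and WT. Cyp1a1, another target, was at 0 in at least 1 DM-aKG and 1 control library.

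**Figure D4:**
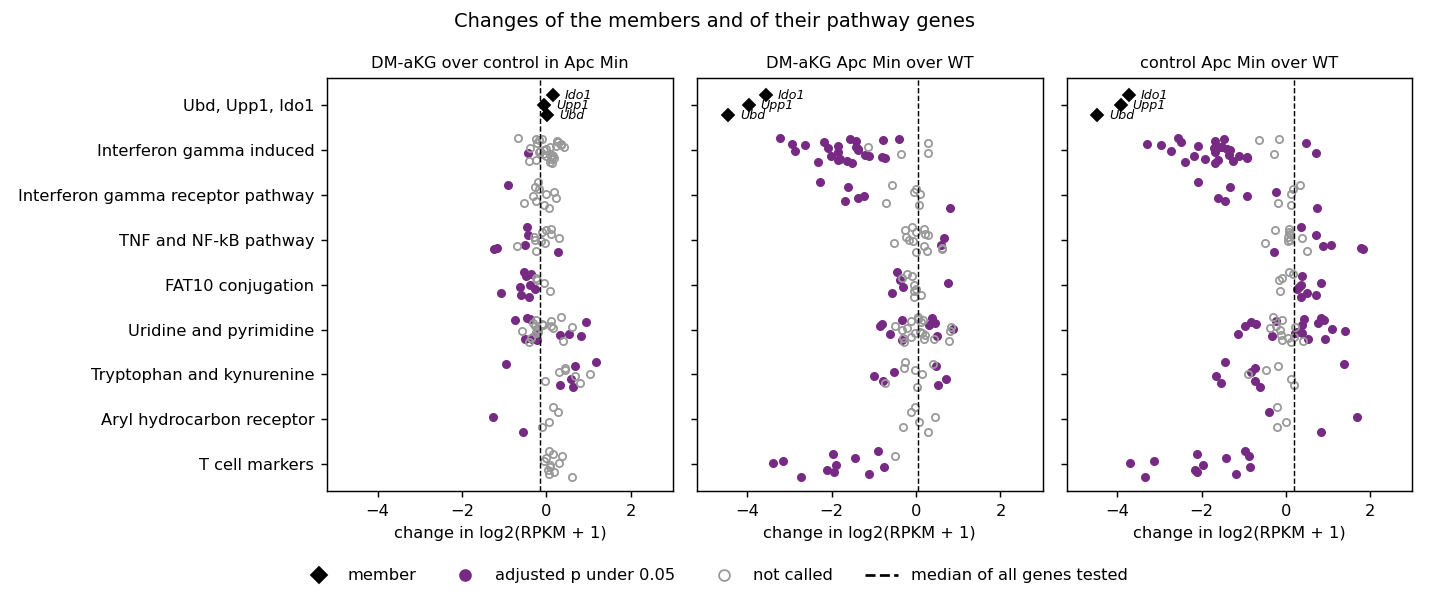
Change in log2(RPKM + 1) in the 3 comparisons for Ubd, Upp1 and Ido1 (black diamonds) and for the tested genes of 7 pathway lists and 1 marker list, 1 point per gene, filled where the limma adjusted p is under 0.05; the dashed line is the median of all 12431 genes. Against WT, most interferon gamma induced genes (25 of 29 with DM-aKG, 24 of 29 in controls) and T cell markers (11 and 12 of 12) are lower, as the 3 genes are, while with DM-aKG against control 1 of these 29 genes and 0 of these 12 markers were called. For a gene that met the filter through WT libraries alone, the fall against WT is largely fixed.

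Over all genes the direction of calls depended on scaling. Of the genes called, 82.4% were lower with DM-aKG against control as deposited, 51.4% under quantile and 57.3% under median-of-ratios scaling. Between control Apc Min and WT libraries 26.6% were lower as deposited, 50.8% under quantile and 50.7% under median-of-ratios scaling, and between DM-aKG Apc Min and WT libraries 44.1%, 51.4% and 55.1%. As deposited, the median change of all genes tested was -0.142 with DM-aKG against control. It was 0.199 between control Apc Min and WT and 0.053 between DM-aKG Apc Min and WT. Under quantile and median-of-ratios scaling, which by design remove such shifts between libraries, the medians lay between -0.010 and 0.022. Scaling each library to an equal RPKM total (TPM) did not even out the calls. There 84.1% of called genes were lower with DM-aKG against control. Against WT, 22.7% were lower in control Apc Min and 40.5% in DM-aKG Apc Min libraries. The medians were -0.182, 0.287 and 0.1 in the same order. The smallest difference from WT among Ubd, Upp1 and Ido1 under any scaling was that of Ido1 with DM-aKG, at -3.485 under quantile scaling.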

How the data were processed

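The deposited table holds 24795 genes by 20 libraries. The authors deposited values that are read here as RPKM. No header names the unit; it was judged from their fractional form, their steps and their totals of 277578 to 369278 per library. The tools listed in the submitters' processing notes are CASAVA 1.8, HISAT2 2.0.4 and Partek, with the build mm10. Annotation and strand setting: not given in the sources used here, so reads of overlapping or antisense genes cannot be told apart. From the table, 4 rows with repeated IDs were left out, and 4272 genes were at 0 in every library. The steps between low values of 576 to 732 genes per library gave the depth. Up to 6 reads, 70.3 to 76.2% of these values came out within 0.1 of whole reads, against 20% for an even spread. Counts were not recovered from so loose a grid, and count models were not used.

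The 12431 genes that reached 1 RPKM in 6 or more libraries were fitted as log2(RPKM + 1) over all 20 libraries and 3 groups with limma 3.58.1 (trend and robust, statmod 1.5.0, R 4.3.3), 2-sided, with Benjamini-Hochberg adjustment over all genes kept and a threshold of 0.05. A fold change on this scale understates the change of low genes. A gene can pass the filter through WT or control libraries alone, and its direction against groups under 1 RPKM is then largely fixed. The step was tested on simulated data. Groups and replicate numbers came from the labels. The members, gene lists and marker lists were chosen with earlier results of these data known. Genes were named if they were members, fixed pathway genes, up to 3 called genes of smallest p per pathway list and comparison, the 6 genes most like the members over 20 or over 7 WT libraries, or chromosome neighbours; Serping1 and the further genes listed beside counts were named after their values were seen. Some genes that this rule picks are not reported here. Alternatives changed the pseudocount, filter, scaling, libraries and model, left out each library, and added the replicate block. Python 3.11.15, numpy 2.4.6, pandas 2.3.3 and matplotlib 3.10.9 were used for the rest.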

Additional observations from a re-analysis of the deposited data

Results flagged for a closer look

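Of 114 groups of libraries examined for a gap, 14 held a library far from the others, where chance alone flags about 1 in 20; none of the 9 groups of Ubd, Upp1 and Ido1 values was among them. DM-aKG replicate 2 accounted for 6 of the 14. It had the highest Cxcl2 of its group (4.62 RPKM, the next 0.613), the highest Uck2 (22.5 RPKM, the next 10.8), the highest Il1r1 (5.28 RPKM, the next 3.53), the highest Psmd14 (35.1 RPKM, the next 25.5), the highest Ifng (0.0933 RPKM, the next 0.0309) and the lowest Entpd5 (10.6 RPKM, the next 25.1). DM-aKG replicate 6 had the lowest Ifngr1 of its group (67.1 RPKM, the next 101), and in DM-aKG replicate 1 Tdo2 was at 0 where the next library had 0.0444 RPKM.

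Among controls, replicate 1 had the lowest depth (21.2 M reads, the next 26.7) and the highest Ifng (0.0775 RPKM, the next 0.0287), and replicate 2 the highest Ciita (1.48 RPKM, the next 0.452) and the highest Kmo (0.742 RPKM, the next 0.403). In WT, replicate 5 had the highest Ciita (8.49 RPKM, the next 6.47) and replicate 2 the highest Cxcl2 (0.0982 RPKM, the next 0.0360). The flagged Tdo2, Ifng and WT Cxcl2 values lie close to the floor, where a few reads can open such a gap.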

How the results depend on the processing

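Ubd, Upp1 and Ido1 were not called with DM-aKG against control under any of the 32 alternatives. The sign of these small changes was not stable: Upp1 was at 0.132 under quantile and 0.102 under median-of-ratios scaling, Ubd at -0.136 with the replicate block, -0.001 with the sets of replicates as a factor and -0.253 in replicates 1 to 4 only, and Ido1 at -0.016 in replicates 5 to 7 only. Leaving out each library in turn gave -0.136 to 0.194 for Ubd, -0.274 to 0.161 for Upp1 and -0.068 to 0.390 for Ido1. Against WT the change of Ubd was -5.28 with DM-aKG and -5.62 in controls with a pseudocount of 0.1. The other changes of the 3 genes from WT moved by less than 1 SD between replicates, taken over the 3 groups.

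Counts of all genes called moved more; the cause was not tested. With DM-aKG against control 735 were higher and 3432 lower; they were 1750 and 1849 under quantile scaling, 1370 and 1841 under median-of-ratios scaling, 404 and 1821 in replicates 1 to 4 only, and 381 were higher in replicates 5 to 7 only. Leaving out each library gave 572 to 881 higher and 2867 to 3714 lower. Between control Apc Min and WT, 5368 were higher and 1948 lower; they were 3240 and 3348 under quantile scaling and 3302 and 3396 under median-of-ratios scaling, and 1141 were lower in replicates 5 to 7 only. Between DM-aKG Apc Min and WT, 2722 were higher and 2151 lower, and in replicates 5 to 7 only 198 and 350. Of 1376 values of other named genes under alternatives, 1360 kept their direction and side of the threshold, 16 were no longer called and 0 reversed. Same-numbered libraries did not as a rule deviate together (19 pairs, r -0.457 to 0.604, 8 over 0.1). The median r of other pairs was -0.0145, and 4 of 20 libraries matched best with their own number. The number was therefore not taken as a pairing in the main fit, although a pairing of some numbers is not excluded. At 1 to 61 Ubd reads per control library, depth limits that group.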
